A study of Mus musculus with 4 samples.

Results

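Sodium chloride leaves the tubular fluid of the distal nephron through a pair of related cotransporters, and the genes for both were followed here with the kinases and the ubiquitin ligase that set their activity. The 9 genes were Slc12a1, Slc12a3, Wnk1, Wnk4, Stk39, Oxsr1, Klhl3, Cul3 and Umod. They were taken by symbol from the 27998 genes that all 4 matrices list, and each symbol was found once in every matrix. Transcripts were counted in nuclei of whole kidneys from C57BL/6 mice at postnatal week 22, with 2 libraries from untreated mice and 2 from mice given losartan, which blocks the angiotensin II type 1 receptor. The labels name no other agent or allele, and the sources used here leave out the losartan dose, its route and duration, and whether the animals were male or female. No label says that replicates came from separate animals, so the p-values measure only the spread between these libraries, which may be technical.

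Slc12a1 encodes NKCC2, the furosemide-sensitive sodium-potassium-chloride cotransporter of the thick ascending limb, and Slc12a3 encodes NCC, the thiazide-sensitive sodium-chloride cotransporter of the distal convoluted tubule. The WNK kinases, encoded by Wnk1 and Wnk4, sense chloride and activate the kinases SPAK (Stk39) and OSR1 (Oxsr1), which phosphorylate both cotransporters. KLHL3 (Klhl3) is the adaptor that brings WNK kinases to a ligase built on cullin 3 (Cul3), and loss of this brake causes familial hyperkalaemic hypertension. Umod encodes uromodulin, the main protein of normal urine, which is secreted by the thick ascending limb and is known to favour NKCC2 at the cell surface. Transcript counts do not measure the phosphorylation through which the kinases act.

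The 4 libraries held between 42290414 and 59078762 unique molecular identifiers (UMIs, each standing for 1 captured transcript) in 39654 barcodes, and 36003 nuclei passed the filters. Pairs of libraries shared between 17 and 24 barcodes. Clusters were built and named without the 9 genes, and a class name means only that its marker genes were found in those nuclei. This gave 31 named clusters with 33345 nuclei, and 13 classes reached 50 nuclei in each of the 4 libraries. Thick ascending limb nuclei numbered 1246 (untreated 1), 895 (untreated 2), 949 (losartan 1) and 1181 (losartan 2), and distal convoluted tubule nuclei 698, 649, 641 and 649 in the same order. Summed levels of the 10 thick ascending limb markers ran from 6900 to 11700 CPM (UMIs of a gene as a rate over all UMIs of the class, scaled to a fixed library size) in that class and from 2510 to 5510 CPM in the distal convoluted tubule. The 9 distal convoluted tubule markers ran from 11100 to 16300 CPM in their own class and from 2720 to 3550 CPM in the thick ascending limb. Adipocytes were found in untreated library 2 (63 nuclei) and losartan library 2 (45 nuclei), with 0 in the other 2 libraries, and enter no comparison.

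Promoters are shown for the pair of genes highest in the thick ascending limb, Slc12a1 and Umod, and for a pair highest in the distal convoluted tubule, Slc12a3 and Klhl3, because each pair shares its leading class. A window was obtained for 8 of the 9 genes. Each sequence is the 150 bases directly before the more upstream of the RefSeq and GENCODE starts, from the RefSeq promoters on GRCm38.p6, written 5′ to 3′ on the strand of the gene. Capitals mark a match to a searched motif.
Slc12a1, chr2:125152355-125152504, plus strand: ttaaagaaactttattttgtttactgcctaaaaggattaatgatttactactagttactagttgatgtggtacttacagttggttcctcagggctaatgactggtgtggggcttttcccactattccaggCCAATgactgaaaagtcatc
Umod, chr7:119479283-119479432, minus strand: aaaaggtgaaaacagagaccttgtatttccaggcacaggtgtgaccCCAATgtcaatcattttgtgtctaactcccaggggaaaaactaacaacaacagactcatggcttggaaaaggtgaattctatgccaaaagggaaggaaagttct
Slc12a3, chr8:94329051-94329200, plus strand: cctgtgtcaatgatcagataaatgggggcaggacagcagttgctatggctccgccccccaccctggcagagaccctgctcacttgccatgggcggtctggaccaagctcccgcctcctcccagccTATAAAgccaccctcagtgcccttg
Klhl3, chr13:58113648-58113797, minus strand: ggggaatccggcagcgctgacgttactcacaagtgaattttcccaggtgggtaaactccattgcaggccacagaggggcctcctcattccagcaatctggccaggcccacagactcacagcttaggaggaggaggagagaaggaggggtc
The motifs searched on both strands were the TATA box TATAAA and the CCAAT box, the HNF1 core GTTAAT and the oestrogen-related receptor site TCAAGGTCA. Slc12a3 held TATAAA 32 bases before its RefSeq start, a motif found in 7.57% of 32851 promoters in windows of this length. Slc12a1 held CCAAT 115 bases before its RefSeq start and Umod held it 124 bases before, against 24.5% of promoters. The shares over all promoters were taken in the 150 bases directly before the RefSeq start. The windows of Slc12a1, Umod and Slc12a3 end 95, 20 and 7 bases before that start, so the regions compared are not the same. The Klhl3 window held none of the 4 motifs, and the HNF1 core (3.71% of promoters) and the receptor site (0.18%) were in none of the windows printed. No matches overlapped, and a match describes letters only.

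Slc12a1 (ENSMUSG00000027202, chromosome 2, 125152505 to 125230002, plus strand, GRCm38) was a transcript of the thick ascending limb. There it reached 16000 and 16300 CPM untreated and 17400 and 19800 CPM with losartan (library 1, then 2, here and below), a mean of 17400 ± 1730 CPM (SD, n = 4). The other 12 classes had means of 308 to 724 CPM, and the highest single library among them reached 1100 CPM. Every thick ascending limb library therefore lay above every library of any other class. Untreated library 2 was the lowest of the 4 libraries in all 12 of these other classes. That library also had the lowest summed level of proximal tubule markers inside thick ascending limb nuclei, 520 CPM against 1200 to 1990 CPM in the other 3, and the part of carried-over RNA in the low Slc12a1 values was not tested. The gene overlaps Gm14002 on the opposite strand, and without a stated strand of counting the reads of both cannot be told apart.

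Slc12a3 (ENSMUSG00000031766, chromosome 8, 94329201 to 94366214, plus strand) was a transcript of the distal convoluted tubule. It stood at 15200 and 15400 CPM in the untreated and 18200 and 17200 CPM in the losartan libraries, a mean of 16500 ± 1450 CPM (SD, n = 4). Means of the other 12 classes ran from 117 CPM to 750 CPM, and none of their libraries exceeded 1040 CPM. The thick ascending limb, its direct upstream neighbour, held 145 ± 31.5 CPM (SD, n = 4), within the range of the proximal tubule libraries.

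Shares of nuclei with a UMI gave the same picture for the cotransporters once every nucleus was thinned to 1000 UMIs, which left out no nucleus. Slc12a1 was found in a mean of 99.4% of thick ascending limb nuclei, 27.1% of distal convoluted tubule nuclei and 21.6% of proximal tubule nuclei, where the gene should be silent and the share serves as background. Before thinning, that background ran from 55.9% to 72.4% of proximal tubule nuclei at median depths of 4086 to 5717 UMIs, against 3161 to 4490 UMIs in the thick ascending limb. Slc12a3 was found in 98.5% of distal convoluted tubule nuclei, 12.1% of thick ascending limb nuclei and 9.96% of proximal tubule nuclei after thinning. At least 3 UMIs of both cotransporters occurred in 1.23% to 2.81% of thick ascending limb nuclei and in 7.55% to 19.7% of distal convoluted tubule nuclei. The lowest of these shares in both classes came from untreated library 2, the library with the lowest background of Slc12a1.

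**Figure D1:**
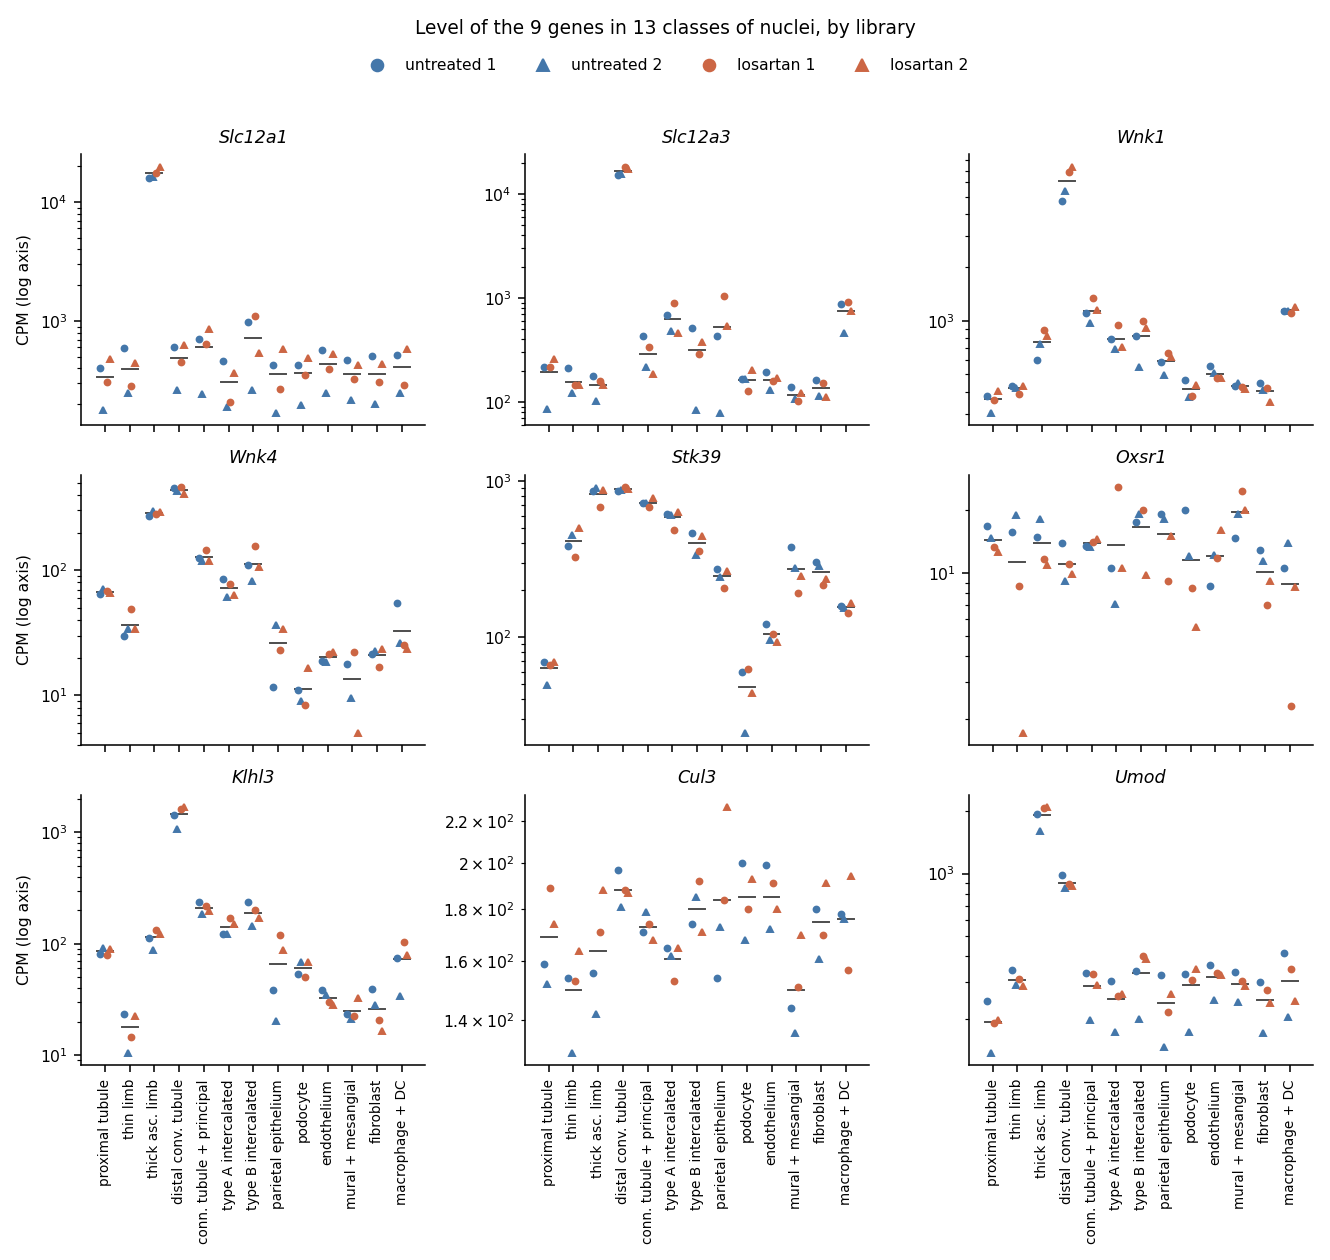
Level of each of the 9 genes in 13 classes of nuclei, in CPM on a log axis, with 1 point per library (circles and triangles for libraries 1 and 2, blue untreated, orange losartan) and a bar at the mean of 4. Among these classes, Slc12a1 stood apart in the thick ascending limb, Slc12a3, Wnk1 and Klhl3 in the distal convoluted tubule, and Oxsr1 and Cul3 had overlapping values. A connecting tubule cluster, named by itself only in other clusterings, is not shown. In Wnk1 and Klhl3 it was nearer to the distal convoluted tubule.

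Among the kinases, Wnk1 (ENSMUSG00000045962, chromosome 6, 119923969 to 120038672, minus strand) was set apart by its level in the distal convoluted tubule. That class held 4720 and 5390 CPM untreated and 6870 and 7350 CPM with losartan, a mean of 6090 ± 1230 CPM (SD, n = 4). The next classes were macrophages and dendritic cells at 1150 ± 37.6 CPM and connecting tubule and principal cells at 1140 ± 148 CPM (SD, n = 4 each), whose libraries overlapped. The thick ascending limb was sixth in order at 762 ± 125 CPM and the proximal tubule lowest at 361 ± 42.4 CPM (SD, n = 4 each). No library of any other class reached the lowest library of the distal convoluted tubule. The kidney makes a short form of WNK1 from an internal promoter, without most of the kinase domain, and gene-level counts do not separate it from the full-length form.

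Wnk4 (ENSMUSG00000035112, chromosome 11, 101260567 to 101277409, plus strand) followed the nephron differently, with high levels in both salt-reabsorbing segments. It stood at 457 and 430 CPM untreated and 463 and 405 CPM with losartan in the distal convoluted tubule. The thick ascending limb held 273, 295, 279 and 290 CPM in the same order of libraries. All 4 values of the first class lay above all 4 of the second, and these above the connecting tubule and principal cells at 127 ± 12.3 CPM (SD, n = 4). Podocytes, the filtration cells of the glomerulus, were lowest at 11.3 ± 3.66 CPM (SD, n = 4). The gene overlaps Gm11615 on the opposite strand, with the same limit as for Slc12a1.

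Stk39 (ENSMUSG00000027030, chromosome 2, 68210445 to 68472268, minus strand), the gene for SPAK, was shared along the distal nephron. Means were 888 ± 22.4 CPM in the distal convoluted tubule, 832 ± 99.7 CPM in the thick ascending limb and 727 ± 40.9 CPM in connecting tubule and principal cells (SD, n = 4 each). Neighbours among these 3 classes overlapped, and type A intercalated cells followed, below all of their libraries, at 585 ± 68.1 CPM (SD, n = 4). Proximal tubule and podocytes were lowest, at 63.5 ± 9.77 and 47.6 ± 17.5 CPM (SD, n = 4 each). Oxsr1 (ENSMUSG00000036737, chromosome 9, 119238432 to 119322427, minus strand), the gene for the sister kinase OSR1, had means of 8.87 to 19.7 CPM with overlapping neighbours throughout. It rested on few molecules, 43 to 81 UMIs per library in the thick ascending limb, and it overlaps Slc22a14 on the same strand. After thinning, 1.17% to 1.42% of nuclei in the proximal tubule, thick ascending limb and distal convoluted tubule held an Oxsr1 UMI, too few to compare these classes by shares. In the fit of full counts described below, Oxsr1 in the distal convoluted tubule against the proximal tubule stood at log2 -0.39 (SE 0.20, edgeR adjusted p = 0.0914), which was not called.

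For the ligase, the adaptor and the scaffold differed in pattern. Klhl3 (ENSMUSG00000014164, chromosome 13, 58000228 to 58113592, minus strand) stood at 1440 and 1060 CPM untreated and 1630 and 1690 CPM with losartan in the distal convoluted tubule. Connecting tubule and principal cells came next at 209 ± 23.6 CPM, type B intercalated cells at 188 ± 39.1 CPM, the thick ascending limb at 114 ± 19.2 CPM and the thin limb last at 17.7 ± 6.28 CPM (SD, n = 4 each). The lowest distal convoluted tubule library, untreated 2, was still above every library of the other classes. As for Wnk1, Klhl3 was not called different from the connecting tubule cluster that the finer clustering named by itself. Cul3 (ENSMUSG00000004364, chromosome 1, 80264923 to 80340480, minus strand), a scaffold used by many adaptors besides KLHL3, had class means from 150 to 188 CPM, a ratio of 1.25 between the highest and lowest.

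Umod (ENSMUSG00000030963, chromosome 7, 119462711 to 119479282, minus strand) was highest in the thick ascending limb, with 1930 and 1600 CPM untreated and 2060 and 2090 CPM with losartan. The distal convoluted tubule was second with 987, 856, 892 and 870 CPM. The 4 values of each class did not overlap, and the remaining 11 classes had means of 193 to 332 CPM. After thinning to 1000 UMIs, Umod was found in 73.7% of thick ascending limb, 45.0% of distal convoluted tubule and 18.0% of proximal tubule nuclei, the last serving as background. The gene overlaps Gm44588 on the opposite strand.

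Differences between segments were tested in 1 edgeR quasi-likelihood fit of summed counts over the 13 classes, with library as a block and p-values adjusted over all 12903 genes (Benjamini-Hochberg, called under 0.05). Between the distal convoluted tubule and the thick ascending limb, 4 of the 9 genes were called higher and 2 lower, where 8.44% of all genes tested were higher and 10.3% lower, 18.7% in all. Slc12a3 was higher in the distal convoluted tubule by log2 6.88 (SE 0.34, edgeR adjusted p = 4.89e-22), Klhl3 by 3.67 (SE 0.19) and Wnk1 by 2.99 (SE 0.13), each in 4 of 4 libraries. Wnk4 was higher by 0.62 (SE 0.12, edgeR adjusted p = 8.83e-05), also in 4 of 4 libraries. Slc12a1 was lower by log2 -5.28 (SE 0.23) and Umod by -1.08 (SE 0.12), each in 4 of 4 libraries. Stk39 (0.10, SE 0.12, edgeR adjusted p = 0.679), Oxsr1 (-0.34, SE 0.22, adjusted p = 0.329) and Cul3 (0.20, SE 0.08, adjusted p = 0.084) did not pass. The median of the 9 genes was 0.20 against -0.02 for all genes.

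Against connecting tubule and principal cells, which take over salt reabsorption through the epithelial sodium channel, 5 of the 9 genes were higher in the distal convoluted tubule and 0 lower, against 10.1% and 11.3% of all genes (21.3% in all). Slc12a3 differed by log2 5.88 (SE 0.33), Klhl3 by 2.78 (SE 0.19), Wnk1 by 2.41 (SE 0.13), Wnk4 by 1.79 (SE 0.13) and Umod by 1.69 (SE 0.12), each called by edgeR and higher in 4 of 4 libraries. Slc12a1 stood at -0.28 (SE 0.20, edgeR adjusted p = 0.391) and Stk39 at 0.29 (SE 0.13, adjusted p = 0.0953). This contrast depended on the clustering. In a finer one (resolution 2), a connecting tubule cluster of 872 nuclei, with the distal convoluted tubule as its second marker set, was named by itself and became the class compared. Wnk1 then stood at log2 0.15 (adjusted p = 0.641), Klhl3 to 0.53 (adjusted p = 0.0649), Slc12a3 to 1.13 and Wnk4 to 0.87. With doublets kept, where that cluster held 1369 nuclei, the values were 0.70 for Wnk1, 1.06 for Klhl3, 1.81 for Slc12a3 and 1.17 for Wnk4, and Slc12a1 turned to 1.01 (adjusted p = 2.48e-05), with 0.70 at the finer clustering.

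The proximal tubule, which uses neither cotransporter, gave a reference from outside the distal nephron. Against it, 5 of the 9 genes were higher in the thick ascending limb and 0 lower, where 28.7% of all genes tested were higher and 28.8% lower (57.5% in all). These were Slc12a1 (log2 5.82, SE 0.24), Stk39 (3.71, SE 0.14), Umod (3.34, SE 0.13), Wnk4 (2.08, SE 0.13) and Wnk1 (1.08, SE 0.12), each higher in 4 of 4 libraries. Klhl3 stood at 0.39 (SE 0.18, edgeR adjusted p = 0.0569) and was called in 6 of 12 alternatives. In the distal convoluted tubule, 7 of the 9 were higher and 0 lower, against 25.3% and 28.4% of all genes (53.7% in all). Stk39 was higher by log2 3.81 (SE 0.14), Klhl3 by 4.06 (SE 0.19), Wnk1 by 4.07 (SE 0.14) and Wnk4 by 2.70 (SE 0.13). Slc12a1 was also called there, at 0.53 (SE 0.20, edgeR adjusted p = 0.019), and lost the call without untreated library 1 (adjusted p = 0.0998) or losartan library 1 (0.0522).

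Lists of other genes of the pathway were compared between the segments as a description, since these genes, unlike the 9, took part in the clustering. Between the distal convoluted tubule and the thick ascending limb, 8.44% of all genes tested were called higher in the first and 10.3% lower. Of 13 WNK partners and kinase regulators, 1 was called higher in the distal convoluted tubule and 5 lower. Their median log2 was -0.13 against -0.02 for all genes. The higher 1 was Nr3c2, the mineralocorticoid receptor, at 1250 ± 125 against 653 ± 84.6 CPM (SD, n = 4 each; log2 0.94, SE 0.14, edgeR adjusted p = 3.72e-07). Of 8 genes of the cullin 3 ligase machinery, 1 was higher, the adaptor Kctd9 (0.91, SE 0.15), and 0 lower. Of 6 other Slc12 cotransporters tested, 0 were higher and 1 lower, the potassium-chloride cotransporter gene Slc12a4 (-0.57, SE 0.19). Of 9 channel and pump genes that work beside the cotransporters, 3 were higher and 3 lower. The higher ones included Kcnj10, a basolateral potassium channel subunit (0.94, SE 0.15). Nr3c2, Kctd9, Slc12a4 and Kcnj10 were picked from their lists after their values were seen.

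Within each segment the levels were graded. Thick ascending limb nuclei were clustered again, also without the 9 genes, and the parts were named from cortical, medullary and macula densa markers. Wnk1 stood at 1830, 2460, 2250 and 2680 CPM (untreated 1 and 2, losartan 1 and 2) in the cortical part, against 350, 299, 314 and 309 CPM in the larger medullary part. The values did not overlap, and a smaller medullary part ran from 266 to 361 CPM. Slc12a1 and Wnk4 ran the other way. Slc12a1 stood at 11600 to 14900 CPM in the cortical part and at 18100 to 22200 CPM in the larger medullary part, and Wnk4 at 156 to 195 CPM and 357 to 395 CPM. Umod was 1660 to 2440 CPM in the cortical part and 1100 to 1510 CPM in the smaller medullary part, while the larger one, at 1290 to 1970 CPM, overlapped the cortical part. Parts of 1092, 529 and 156 nuclei had no name and lie outside this comparison. The part of 529 nuclei scored 0.665 for cortical and 0.501 for medullary markers. It held Slc12a1 at 16900 to 20200 CPM and Wnk1 at 471 to 770 CPM. Umod over all nuclei was 2480 CPM in the part of 1092 nuclei and 2520 CPM in that of 529.

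A sub-cluster of 56 nuclei carried macula densa markers, the cells that sense salt at the end of the thick ascending limb through NKCC2. Summed over all libraries it held Slc12a1 at 11500 CPM, Wnk1 at 902 CPM, Klhl3 at 330 CPM, Wnk4 at 121 CPM and Umod at 304 CPM. The 3 largest parts of the class held Umod at 2480, 1570 and 2120 CPM. With 9 to 19 nuclei per library, no spread between libraries is given for the macula densa nuclei. Another sub-cluster of 247 nuclei had no name and was led by Cacna2d3, Anxa1 and Asic2, with 97, 143, 0 and 7 nuclei in the order untreated 1 and 2 and losartan 1 and 2. It held Slc12a1 at 11000 and 12100 CPM and Umod at 728 and 735 CPM in untreated libraries 1 and 2.

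In the distal convoluted tubule, the nuclei with early markers formed 2 large parts, with Slc12a3 at 15900 to 19600 and 16300 to 19400 CPM. The late part, which carries markers shared with the connecting tubule, held Slc12a3 at 11600, 12200, 12800 and 11300 CPM, below every library of both early parts. Wnk4 was 201 to 356 CPM in the late part against 478 to 589 and 483 to 552 CPM in the early parts. Umod was 190 to 433 CPM in the late part against 1010 to 1410 and 1050 to 1140 CPM in the early parts. For Wnk4 and Umod the late and early values also did not overlap. Wnk1 did not share this gradient, with 5080 to 7100 CPM late and 4530 to 6130 and 5370 to 7890 CPM early. These levels describe parts of classes and carry no test.

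**Figure D2:**
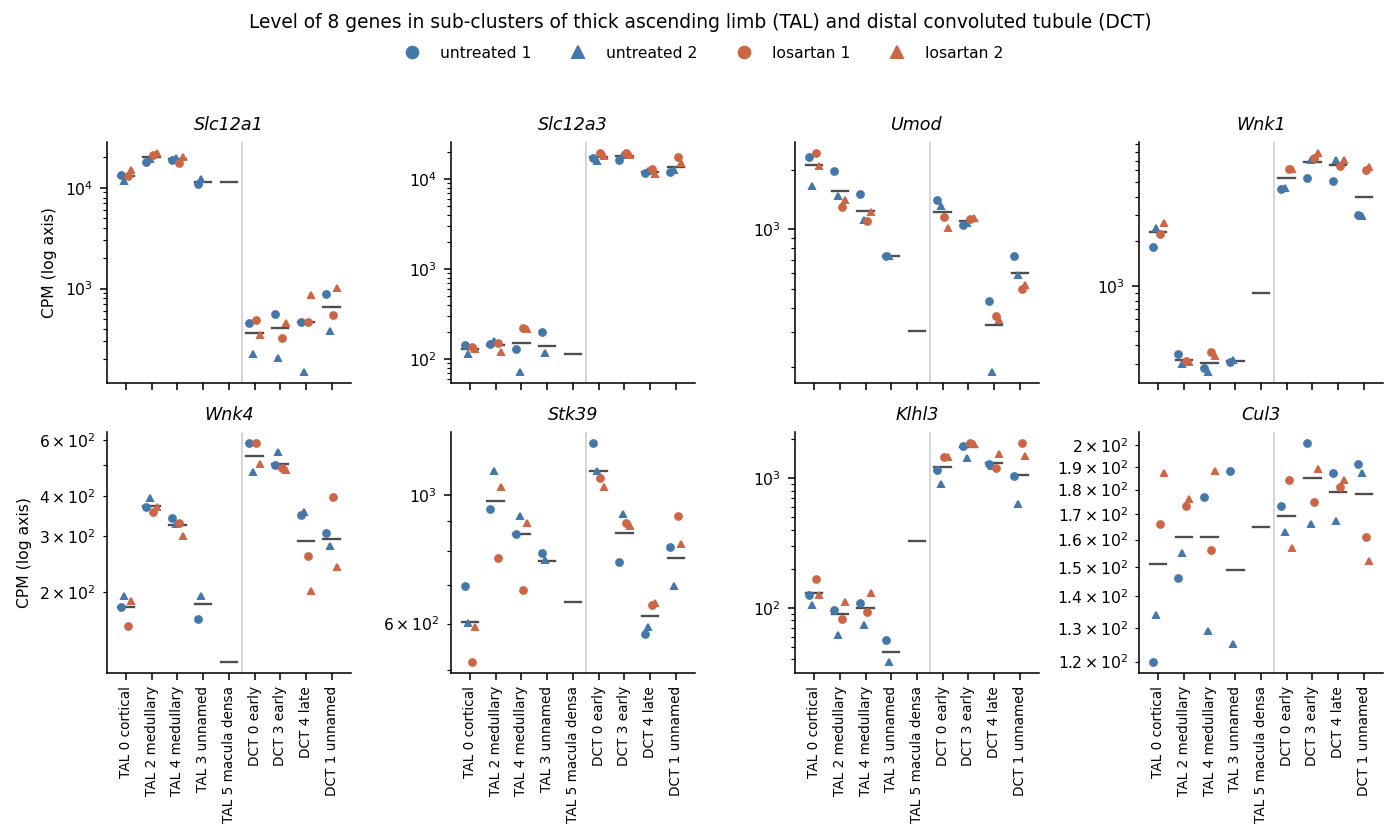
Level of 8 of the genes in parts of the thick ascending limb (TAL, left of the line) and distal convoluted tubule (DCT, right), in CPM on a log axis, with 1 point per library that had enough nuclei and a bar at the level over all nuclei of that part. Wnk1 was higher in the cortical than in the medullary thick ascending limb, and Slc12a3, Wnk4 and Umod were lower in the late than in the early distal convoluted tubule. Unnamed thick ascending limb parts of 1092, 529 and 156 nuclei and distal convoluted tubule parts of 10 and 51 nuclei are not shown.

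Genes with the most similar profile over the 13 classes were listed by Pearson correlation of log2(CPM + 5) among 11271 genes, as a description without a test, since the 13 points share 4 libraries and their depth. For Slc12a1 the leading genes were its overlapping neighbour Gm14002 (0.987), Gm17225 (0.983), Tmem207 (0.982), Pex5l (0.981) and Nccrp1 (0.98). For Slc12a3 they were Gm5860 (0.938), Gm28888 and Lrrc52 (0.934 each), Wnk1 (0.929) and Gm27239 (0.915). For Klhl3 they were Sall3 (0.95), Cwh43 (0.93), Gm17189 (0.921), Ptgfr (0.915) and Tox3 (0.913). For Wnk4 they were Dhrs11 (0.978), Mynn (0.96), Gys1 (0.956), Pla2g3 (0.953) and Tsc1 (0.95). Tmem207 and Sall3 belong to the markers by which classes were named. Among the 9 genes, the profile closest to that of Slc12a3 was that of Wnk1. By Spearman correlation, only 3 of these 20 genes were again among the leading 5.

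The treatment comparison asked whether transcripts of this pathway differ when the angiotensin II receptor is blocked, since angiotensin II is known to activate NCC through the WNK kinases and SPAK. No gene of the 9 was called by edgeR in any of the 13 classes or in the whole kidney, with 0 of 115 tests passing. Of these tests, 14 had an unadjusted p under 0.05, 10 of them with higher values under losartan. Over all genes, edgeR gave an unadjusted p under 0.05 for 1118 of 12263 in the distal convoluted tubule and 1363 of 13365 in the thick ascending limb. It did so for 249 of 8299 in the thin limb and 4038 of 18410 in the whole kidney. DESeq2 called 1 of the 9 genes, Wnk1 in the distal convoluted tubule. The background was low as well, with calls for 0.147% of all genes in the distal convoluted tubule, 0.277% in the thick ascending limb, 0.154% in connecting tubule and principal cells and 0 of 18410 genes in the whole kidney. It was 0.824% in mural and mesangial cells, 0.213% in podocytes, 0.109% in type B and 0.0138% in type A intercalated cells, 0.031% in fibroblasts, 0.0198% in the parietal epithelium, 0.00872% in endothelium and 0% in the proximal tubule, thin limb and macrophages. Leaving out 1 library moved the count of calls to 22 without untreated library 1, 5 without untreated library 2, 0 without losartan library 1 and 2 without losartan library 2. Calls over all genes rose as well without untreated library 1, to 1012 of 13810 genes in the thick ascending limb, 840 of 12794 in the distal convoluted tubule, 997 of 8345 in macrophages and 850 of 13775 in fibroblasts. Without untreated library 2 they were 573 of 13849 genes in the thick ascending limb and 452 of 12746 in the distal convoluted tubule. In these fits the lone library of a group is assumed to vary like the other group. Of the 22 calls without untreated library 1, 8 were of Slc12a1, in classes other than the thick ascending limb, where untreated library 2 was lowest. With 2 libraries in each group, exact permutation allows no p under 0.333. In the values below each class was scaled by itself, so CPM differ slightly from those across classes.

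In the distal convoluted tubule, Wnk1 had the smallest p of the 9 genes. It stood at 4500 and 5150 CPM untreated and at 6570 and 7070 CPM with losartan, from 12520 to 19313 UMIs per library. Both losartan libraries were above both untreated ones, by log2 0.50 (SE 0.10, edgeR adjusted p = 0.147). The direction was the same in all 13 alternatives, with log2 values of 0.42 to 0.61, and 7 of them put Wnk1 past the threshold. Among these were DESeq2 (adjusted p = 0.0075), the finer clustering (0.0475) and doublets kept (0.0442). The largest adjusted p of the alternatives was 0.691. In the parts of the segment, Wnk1 was 4530 and 4600 CPM untreated against 6120 and 6130 CPM with losartan in 1 early part, and 5370 and 7080 CPM against 7330 and 7890 CPM in the other. In the late part, 5080 and 7070 CPM overlapped 6460 and 7100 CPM. The widest gap was in an unnamed part with Lcn2 and Dcdc2a among its leading genes, at 3020 and 2960 CPM untreated and 6050 and 6380 CPM with losartan.

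Klhl3 stood at 1370 and 1010 CPM untreated and 1560 and 1620 CPM with losartan in the same segment, without overlap (log2 0.42, SE 0.14, edgeR adjusted p = 0.37). It passed without untreated library 1 (0.67, adjusted p = 3.1e-08). Slc12a3 stood at 14500 and 14700 CPM untreated and 17400 and 16500 CPM with losartan, also without overlap (log2 0.22, SE 0.09, edgeR adjusted p = 0.508). Within the segment, the Slc12a3 groups overlapped in the late part (11600 and 12200 CPM against 12800 and 11300 CPM) and in 1 early part (16300 and 18600 CPM against 19400 and 18400 CPM). The unnamed part, with Slc12a3 at 12100 and 12600 CPM untreated and 17800 and 15200 CPM with losartan, held 175 and 201 untreated and 68 and 116 losartan nuclei. Without untreated library 2, Slc12a3 passed in the whole segment at 0.24 (adjusted p = 0.0482). Wnk4 did not follow, with 435 and 411 CPM untreated and 443 and 390 CPM with losartan (log2 -0.02, SE 0.10), and the groups overlapped. The remaining genes had log2 values of 0.06 for Stk39, 0 for Cul3, -0.06 for Umod, -0.13 for Oxsr1 and 0.33 for Slc12a1, of which Stk39 alone had groups that did not overlap. In all, 4 of the 9 genes had groups without overlap, against 38.9% of all genes tested in this class. The median log2 of the 9 was 0.06, against 0 for all genes.

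In the thick ascending limb, Slc12a1 stood at 15900 CPM in both untreated libraries and at 17300 and 19600 CPM with losartan, from 63938 to 85492 UMIs per library. The groups did not overlap, and the difference of log2 0.22 (SE 0.16, edgeR adjusted p = 0.748) did not pass. Wnk1 stood at 596 and 720 CPM untreated and 884 and 818 CPM with losartan (log2 0.37, SE 0.13, edgeR adjusted p = 0.354). Its losartan values lay above both untreated values, and the call was gained without untreated library 2 (0.52, adjusted p = 0.0142). Umod stood at 1920 and 1560 CPM untreated and 2050 and 2080 CPM with losartan (log2 0.25, SE 0.14, edgeR adjusted p = 0.637). In the larger medullary part the order was the opposite, with Umod at 1970 and 1480 CPM untreated and 1290 and 1410 CPM with losartan, also without overlap. The unnamed part low in Umod (728 and 735 CPM) held 97 and 143 untreated nuclei and 0 and 7 losartan nuclei, so different parts make up the class in each group. Klhl3 stood at 112 and 85.3 CPM untreated and 131 and 122 CPM with losartan (log2 0.36, SE 0.15, adjusted p = 0.472), and passed without untreated library 1 (0.57, adjusted p = 0.00889). Cul3 stood at 155 and 138 CPM against 170 and 187 CPM (log2 0.29, SE 0.12, edgeR adjusted p = 0.47). For Klhl3 and Cul3, too, both losartan libraries were the higher ones in the class as a whole. Within the larger medullary part, Klhl3 at 95.4 and 62.1 CPM untreated overlapped 81.4 and 111 CPM with losartan. In the smaller one, 108 and 74 CPM overlapped 93.1 and 130 CPM.

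Oxsr1 was the other way round, at 14.8 and 17.8 CPM untreated and 11.7 and 10.8 CPM with losartan (log2 -0.54, SE 0.23, edgeR adjusted p = 0.482). Stk39 stood at 859 and 883 CPM untreated and 681 and 868 CPM with losartan (log2 -0.17, SE 0.14), with losartan library 1 apart from the other 3. Wnk4 stood at 272 and 288 CPM and at 277 and 288 CPM (log2 0.02, SE 0.10). Groups without overlap were found for 6 of the 9 genes, against 39.8% of all genes in this class, and the median log2 was 0.22 against 0. In the cortical part, where Wnk1 was high, its values of 1830 and 2460 CPM untreated overlapped 2250 and 2680 CPM with losartan. In the larger medullary part, Wnk1 at 350 and 299 CPM untreated also overlapped 314 and 309 CPM with losartan. In the smaller one, 283 and 266 CPM lay below 361 and 339 CPM.

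**Figure D3:**
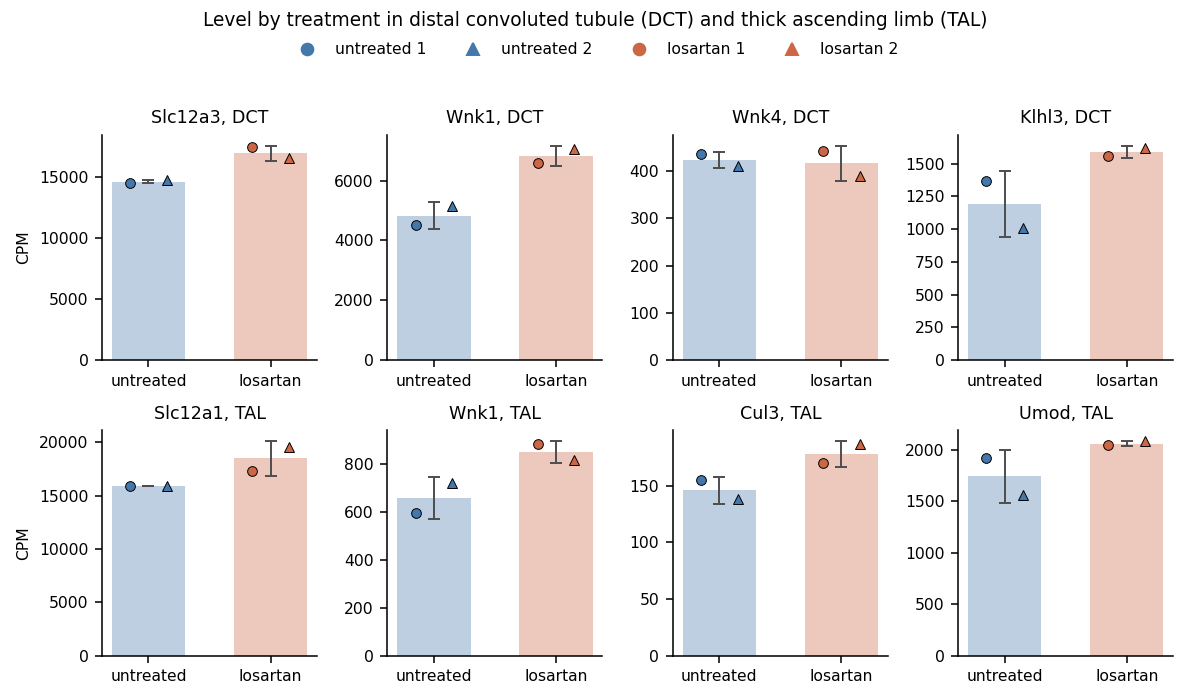
Level of 4 genes in the distal convoluted tubule (DCT, top) and 4 in the thick ascending limb (TAL, bottom), in CPM, with 1 point per library and bars for the mean ± SD of 2 libraries. Losartan libraries lay above both untreated libraries for every gene shown except Wnk4, and none of the differences passed the edgeR test. The panels are a selection of the 9 genes. Among those not shown for the thick ascending limb, Oxsr1 was lower in both losartan libraries, and the groups of Stk39 and Wnk4 overlapped.

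Summed levels of the marker sets of other classes and of the segments' own markers also differed between these libraries. Such sums can rest on few genes of high level. Egf, a naming marker, differed by log2 1.12 in the thick ascending limb, where the 8 genes of the thick ascending limb list had a median of 0.03. The 10 genes of the distal convoluted tubule list had a median of 0 in their own segment. Within thick ascending limb nuclei, the 10 markers of that class summed to 7460 and 6900 CPM untreated and 11700 and 11600 CPM with losartan, and within distal convoluted tubule nuclei its 9 markers summed to 11100 and 11200 CPM and to 16300 and 15000 CPM. The 12 proximal tubule markers summed to 1200 and 520 CPM untreated and 1990 and 1540 CPM with losartan in the thick ascending limb, and to 1220, 550, 1770 and 1820 CPM in the distal convoluted tubule. The 8 markers of injured proximal tubule, Lcn2 and Spp1 among them, were lower in both losartan libraries, with 1140, 1300, 719 and 747 CPM in the thick ascending limb and 1220, 1500, 541 and 604 CPM in the distal convoluted tubule. The 8 endothelial markers in thick ascending limb nuclei summed to 200 and 165 CPM untreated and 601 and 371 CPM with losartan. Lcn2 was also among the leading genes of the unnamed distal convoluted tubule part, and whether UMIs of the injury markers came from other cells was not tested. The part of all these summed levels in the differences of the 9 genes was not tested. When the thick ascending limb cluster with endothelial genes was left out, an alternative chosen after seeing the data, again 0 of the 9 genes was called.

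In connecting tubule and principal cells, 2 of the 9 genes, Wnk1 and Oxsr1, had groups without overlap, against 39.2% of all genes. Wnk1 stood at 1090 and 970 CPM untreated and 1340 and 1150 CPM with losartan (log2 0.27, SE 0.13, edgeR adjusted p = 0.551). Slc12a1 had the widest value, 0.69 (SE 0.36, adjusted p = 0.596), from 690 and 240 CPM untreated and 644 and 850 CPM with losartan, and the groups overlapped. Klhl3 (0, SE 0.15), Cul3 (-0.02, SE 0.12), Stk39 (0.03, SE 0.12) and Wnk4 (0.13, SE 0.14) were close to 0.

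The smallest adjusted p of these tests came from the parietal epithelium of the glomerulus, a class of 54 to 106 nuclei per library. There Klhl3 stood at 46 and 23.9 CPM untreated and 145 and 104 CPM with losartan, from 10, 10, 26 and 23 UMIs (log2 1.91, SE 0.44, edgeR adjusted p = 0.119). Slc12a3 stood at 516 and 93.1 CPM untreated and 1260 and 645 CPM with losartan (log2 1.76, SE 0.47, adjusted p = 0.212). Both genes were higher in both losartan libraries. Egf and Abca13, genes of the distal lists, had the same order of libraries as Slc12a3, with Egf at 318, 69.2, 741 and 379 CPM and Abca13 at 281, 52.5, 1360 and 410 CPM. Before thinning, 29.2% to 35.5% of parietal nuclei held a Slc12a3 UMI, against 32.9% to 41.9% of proximal tubule nuclei, at median depths of 3079 to 4057.5 and 4086 to 5717 UMIs. Whether this is RNA from other cells was not tested. Of the 9 genes, 4 of the 7 tested there had groups without overlap, against 36% of all genes. Without losartan library 2 the log2 values were 2.17 for Slc12a3 and 2.13 for Klhl3, and without untreated library 1 they were 3.34 and 2.34. In fibroblasts Klhl3 had the opposite order. On the scale across classes it stood at 39.4 and 28 CPM untreated and at 20.5 and 16.5 CPM with losartan, without overlap. It was not called there in the main fit, and was called with no filter on low counts (log2 -0.85, edgeR adjusted p = 0.0406).

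Summed over the whole kidney, no difference was called, and in such sums fewer cells of a type and less RNA per cell cannot be told apart. Stk39 stood at 295 and 281 CPM untreated and 204 and 245 CPM with losartan (log2 -0.36, SE 0.13, edgeR adjusted p = 0.202). Cul3 stood at 155 and 142 CPM untreated and 177 and 169 CPM with losartan (log2 0.22, SE 0.10, adjusted p = 0.289). Both genes, and Wnk1, had groups that did not overlap, 3 of 9 against 56.9% of all genes. The other 7 genes had log2 values of -0.15 to 0.17. Within the distal convoluted tubule, where Stk39 was highest, its log2 value was 0.06, and in the thick ascending limb it was -0.17. On the scale across classes, fibroblasts held Stk39 at 304 and 284 CPM untreated and 217 and 235 CPM with losartan. Mural and mesangial cells held 377 and 279 CPM against 191 and 248 CPM. Both were lower without overlap, the distal convoluted tubule was higher without overlap, and the groups overlapped in the other classes.

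**Figure D4:**
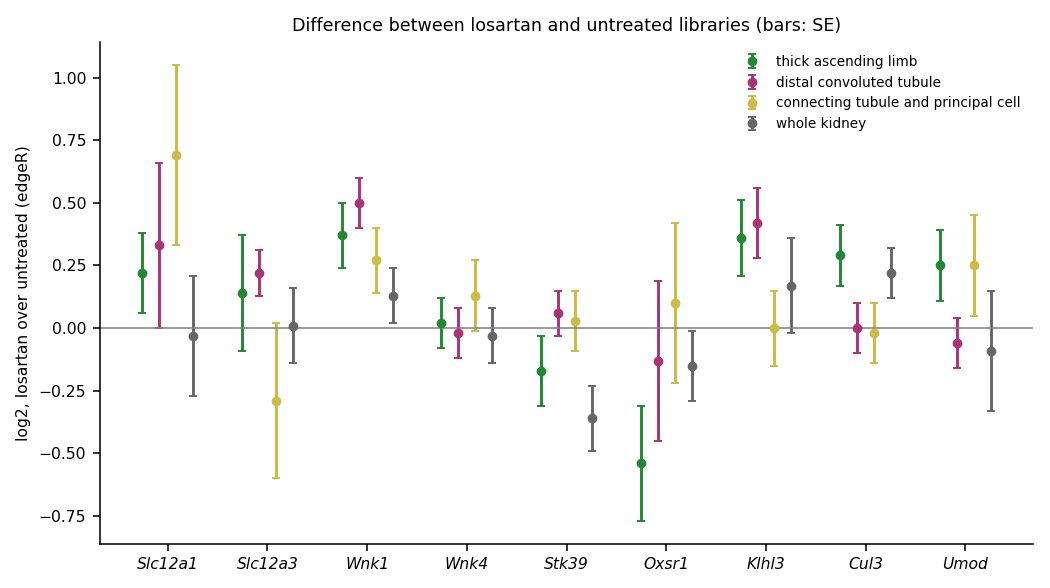
Difference between losartan and untreated libraries for the 9 genes, as log2 with its SE from edgeR, in 3 distal classes and the whole kidney. Wnk1 was above 0 in all 4 fits and Wnk4 lay within 0.13 of 0, and no value passed the test after adjustment.

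Whether the losartan effect differed between the segments was tested directly, as the difference of the log2 effects in the distal convoluted tubule minus those in the thick ascending limb. None of the 9 genes was called, against 0.111% of all genes. An unadjusted p under 0.05 was found for 2 of the 9, without a share over all genes to set beside that count. These were Umod at -0.30 (SE 0.10, edgeR adjusted p = 0.509) and Cul3 at -0.28 (SE 0.12, edgeR adjusted p = 0.711). For Wnk1 the difference was 0.14 (SE 0.11), for Klhl3 0.07 (SE 0.12) and for Slc12a3 0.06 (SE 0.18). Slc12a1 was called without untreated library 1 (0.84) and Slc12a3 without untreated library 2 (0.44). DESeq2 called 0 of the 9 here.

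Of the genes around the pathway, the thick ascending limb list had 1 of 8 called in that segment and 2 of 8 in the distal convoluted tubule. Over all genes, 0.277% and 0.147% were called in these segments. The lists were chosen with earlier results of these data known, so these counts carry no weight as a result about the list. Egf, which encodes the epidermal growth factor that controls magnesium uptake in the distal convoluted tubule, stood at 4500 and 3740 CPM untreated and 9210 and 8710 CPM with losartan in the thick ascending limb (log2 1.12, SE 0.15, edgeR adjusted p = 0.043). It stood at 2000 and 1860 CPM untreated and 4890 and 4110 CPM with losartan in the distal convoluted tubule (1.22, SE 0.11, adjusted p = 0.00582). Ptger3, a prostaglandin E2 receptor gene, fell in the distal convoluted tubule from 107 and 94.1 CPM to 50.1 and 49.8 CPM (-1.01, SE 0.13, edgeR adjusted p = 0.0461). Egf and Ptger3 are also among the naming markers. Without losartan library 1 the Egf call in the thick ascending limb (1.07, adjusted p = 0.136) and that of Ptger3 (-1.01, adjusted p = 0.655) were lost, and without losartan library 2 that of Ptger3 (-0.99, adjusted p = 0.314). The Egf call in the thick ascending limb was also lost with no filter on low counts (adjusted p = 0.19) and with an unnamed cluster added to the class, an alternative chosen after seeing the data (1.14, adjusted p = 0.306), and in both of these fits 0 of all genes were called there.

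The other lists gave no call in the thick ascending limb, the distal convoluted tubule or connecting tubule and principal cells. Among the 13 WNK partners and kinase regulators, 13 were tested in the thick ascending limb (median log2 0.02, smallest adjusted p = 0.449) and 12 in the distal convoluted tubule (0.05, 0.442). In these 2 segments the widest values were those of Wnk3 (-0.65, SE 0.28) and the phosphatase subunit gene Ppp1ca (-0.42, SE 0.27), both in the distal convoluted tubule. For the 8 genes of the cullin 3 ligase machinery, the widest in the same segments were Klhl2, a close relative of Klhl3, at -0.38 (SE 0.15) in the distal convoluted tubule and Cand1 at 0.35 (SE 0.23) in the thick ascending limb. Among the other Slc12 genes, Slc12a4 stood at -0.31 (SE 0.18) in the thick ascending limb. For the channels and pump, the widest in these segments were the barttin gene Bsnd at -0.50 (SE 0.20) and Kcnj10 at -0.22 (SE 0.19), both in the thick ascending limb. In connecting tubule and principal cells the values ran from -0.39 to 0.62 for the WNK partners, -0.52 to 0.17 for the ligase machinery and -0.09 to 0.61 for the channels and pump. Among the 10 distal convoluted tubule genes, Trpm6, a magnesium channel gene, had a thick ascending limb value of -1.02 (SE 0.24, edgeR adjusted p = 0.166) and Abca13 at 0.72 (SE 0.10, adjusted p = 0.0625) in the distal convoluted tubule.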

How the data were processed

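The authors deposited, for each of 4 libraries, a matrix of raw UMI counts per gene and nucleus, written by Cell Ranger 5.0.0 per the file headers. The submitters' processing notes name mm10 and Bowtie 0.12.2 without a role. No source used here states the strand of counting. The members and gene lists were chosen with earlier results of these data known. Barcodes under 500 UMIs or 300 genes, or over 10% mitochondrial UMIs (510 barcodes), were dropped. Doublets (3171) were removed per library with Scrublet in scanpy 1.11.5. Its automatic threshold worked in untreated library 1, and in the other 3 libraries the highest scores were removed at a fixed rate. Clustering used 3000 variable genes, 30 principal components, 15 neighbours and Leiden resolution 1 (igraph 0.11.9), with no integration and without the 9 genes. To be named, a cluster had to show 3 or more markers, each in 10% of its nuclei, and a score 0.25 above the next set, and some of these limits were set after seeing the clusters.

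Counts were summed per library and class and tested with edgeR 4.0.16 in R 4.3.3 (quasi-likelihood, TMM, filterByExpr, Benjamini-Hochberg over all genes of a fit, two-sided, called under 0.05), treatment within each class and segments with library as a block. CPM were computed here from the deposited counts. The 9 genes were all named; list genes were named where called in 1 of 3 distal classes, otherwise the 2 with the widest log2 change of each list, and the 5 most similar genes of 4 members, with exceptions stated. Some list genes are not reported here by name. The scripts were tested on simulated counts. Alternatives were RLE scaling, no filter, DESeq2 1.42.0, leaving out each library, resolution 2, doublets kept, at least 1000 UMIs and a replicate block, and, chosen after seeing the data, 2 other boundaries of the thick ascending limb.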

Additional observations from a re-analysis of the deposited data

Results flagged for a closer look

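The losartan effect on 2 genes of the surrounding lists differed between the distal convoluted tubule and the thick ascending limb when the difference itself was tested in edgeR. Ptger3 had a difference of -0.88 (SE 0.16, edgeR adjusted p = 0.0419), with 107 and 94.1 CPM untreated and 50.1 and 49.8 CPM with losartan in the distal convoluted tubule, and 731 and 679 CPM against 542 and 774 CPM in the thick ascending limb. It was called in 7 of 12 alternatives and not with DESeq2 (adjusted p = 0.441), without losartan library 2 (-0.61, adjusted p = 0.0744), at resolution 2 (-0.81, adjusted p = 0.102), with doublets kept (-0.70, adjusted p = 0.181) or with an unnamed cluster added to the thick ascending limb (-0.93, adjusted p = 0.314). Trpm6 had a difference of 1.48 (SE 0.21, edgeR adjusted p = 0.0139), with 1450 and 1350 CPM untreated and 1850 and 1990 CPM with losartan in the distal convoluted tubule, and 37.5 and 60.5 CPM against 24.9 and 23.4 CPM in the thick ascending limb. It was called in 10 of 12 alternatives and not with DESeq2 (adjusted p = 0.626) or with that cluster added, a choice made after seeing the data (1.27, adjusted p = 0.552). Both genes are naming markers.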

How the results depend on the processing

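Of 247 losartan values recomputed under alternatives, 219 kept their direction and side of the threshold, as did 404 of 432 segment values and 115 of 132 differences of effect. Part of this agreement was fixed in advance, here and in the counts of alternatives above. A minimum of 1000 UMIs left every nucleus in place. The 2 other boundaries of the thick ascending limb left the losartan fits of the other classes unchanged. The count of members called with losartan, 0, became 7 with no filter on low counts, 1 with DESeq2, 1 at resolution 2, 1 with doublets kept and 3 with a replicate block, and ran from 0 to 22 with 1 library left out. The 3 under the block were Wnk1 in the distal convoluted tubule and Slc12a3 and Klhl3 in the parietal epithelium. No label says that replicate numbers pair the libraries, and 2 pairs cannot settle it (same-number correlation 0.03 to 0.35). Adipocytes were found only in the libraries numbered 2 of both groups. The block raised the calls over all genes from 18 to 146 in the distal convoluted tubule and 37 to 583 in the thick ascending limb. In the whole kidney, where the correlation was 0.35, it raised them from 0 to 2263. Over all genes, the distal convoluted tubule had 309 calls with no filter, 75 with DESeq2, 57 at resolution 2 and 69 with doublets kept, and 8 to 840 with 1 library left out. The count for the difference of effect ran from 0 to 1 with 1 library left out. Spearman kept 3 of 20 similar genes. In thick ascending limb against proximal tubule, RLE gave 0.01 for Oxsr1 and 0.02 for Cul3, and DESeq2 0.02 for both. Resolution 2 gave 0.70 for Slc12a1 and -0.04 for Cul3 (distal convoluted tubule against connecting tubule and principal cells), 0.45 for Slc12a3 (thick ascending limb against proximal tubule), and 0.11 (losartan, distal convoluted tubule) and 0.10 (difference of effect) for Wnk4. Doublets kept gave 1.01 for Slc12a1, 0.38 for Slc12a3, 0.10 and 0.07 for Wnk4 and 0.02 for Umod (losartan, distal convoluted tubule). With 1 library left out, losartan values ran from -0.15 to 0.06 for Umod, -0.40 to 0.20 for Oxsr1 and -0.12 to 0.08 for Wnk4 in the distal convoluted tubule, and -0.02 to 0.06 for Wnk4 in the thick ascending limb. Differences of effect ran from -0.39 to 0.84 for Slc12a1, -0.37 to 0.44 for Slc12a3, -0.15 to 0.09 for Wnk4, -0.01 to 0.87 for Oxsr1 and -0.01 to 0.15 for Klhl3. Segment values ran from -0.01 to 0.16 for Stk39 (distal convoluted tubule against thick ascending limb), and from -0.16 to 0.04 for Oxsr1 and -0.08 to 0.01 for Cul3 (thick ascending limb against proximal tubule). The cause was not tested. At 43 to 81 UMIs per library, Oxsr1 was limited by depth.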

Other observations

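Some nuclei that carried transcripts of these genes stayed outside the named classes. A cluster of 135 nuclei lay between the connecting tubule and distal convoluted tubule markers. It held Slc12a3 at 5950 CPM in untreated library 1 (21 nuclei), 8990 CPM in losartan library 1 (80 nuclei) and 6880 CPM in losartan library 2 (24 nuclei), with 10 nuclei in untreated library 2. Over all its nuclei, Wnk1 stood at 3190 CPM, Klhl3 at 806 CPM and Wnk4 at 226 CPM. A cluster of 689 nuclei with a high mitochondrial share held Slc12a1 at 1620, 1150, 2000 and 2080 CPM and Umod at 1890, 1180, 1320 and 1350 CPM, in the order of untreated 1 and 2 and losartan 1 and 2. The 408 nuclei of an unnamed cluster with some thick ascending limb markers, 253 of them from untreated library 2, held Slc12a1 at 332 CPM and Umod at 202 CPM, within the range of the classes outside the thick ascending limb, and Stk39 at 560 CPM.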
